A study of Homo sapiens with 6 samples.

Results

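The nuclear genome encodes most subunits of the mitochondrial respiratory chain and ATP synthase, and crosslinking of the RNA-binding protein IGF2BP3 to their mRNAs was examined here. Members were the protein-coding genes of GENCODE release 44 whose symbols begin with NDUF and a subunit letter and number, equal SDHA to SDHD, or begin with UQCR, COX4 to COX8 or ATP5. This rule found 89 of 20046 protein-coding genes. By symbol these were 39 of complex I, 4 of complex II, 9 of complex III, 17 of complex IV and 20 of ATP synthase. The symbol alone set the complex, also for NDUFC2-KCTD14, ATP5MF-PTCD1, ATP5IF1, COX7A2L and NDUFA4, so not every member need be a subunit of it. The rule itself uses no measured value, although earlier results of these data were known when it was set.

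The libraries were made by IR-PAR-CLIP, a crosslinking and immunoprecipitation method with an infrared label in place of radioactivity, from HCT116, a human colorectal carcinoma line, here carrying a Tet-OsTIR1-PURO transgene in all 6 libraries. The cells took up 100 µM 4-thiouridine for 15 h, a uridine analogue that is crosslinked to bound protein by UV light (365 nm) and is afterwards read as cytosine, so that T-to-C conversions mark crosslinked RNA. RNA was trimmed in the lysate and again on the beads (given as in lysate/on beads, in U/µL), and an antibody to endogenous IGF2BP3 was used for RNase I at 0.05/0.05, 0.1/0.025 and 0.05/0.025 as well as for RNase T1 at 1/1 and 0.25/0.25. Control IgG was used with RNase I at 0.1/0.025. Each condition was 1 library, so no difference between conditions had a replicate check and no p-value is given; all intervals cover counting error only.

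IGF2BP3 is an oncofetal RNA-binding protein that holds target mRNAs mainly through their 3′UTRs and is known for effects on mRNA stability, localization and translation. Respiratory complexes I, III and IV pump protons as electrons pass from NADH or succinate to oxygen, complex II feeds in the electrons of succinate, and ATP synthase uses the gradient to make ATP. The nuclear-encoded subunits are small proteins as a rule, made in the cytosol from short mRNAs and imported into mitochondria, where they join subunits made from mitochondrial DNA.

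The sites below lay under a called cluster, a stretch of overlapping crosslinked reads, in each of the 5 IGF2BP3 libraries. They are shown for the 9 subunits that passed the target rule in all 5 libraries and for NDUFA4, which passed only with RNase I. Each is the longest such interval of its mRNA (or its central 30 nt), written 5′ to 3′ from GRCh38 in the letters of DNA, and COX7C is shown also at its 5′ end. Capitals mark CATT, CATA or CATC. The ATP5F1A site in RNase T1 0.25/0.25 (7 reads) and the ATP5PB site in RNase T1 1/1 (12 reads) rest on ambiguous clusters. Each such cluster was listed with the same sequence and read count at another place of the genome.

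ATP5F1B (chr12:56638256-56638285, minus strand): ctaacccaaaaagcttCATTtttctgtgta
ATP5F1A (chr18:46084242-46084271, minus strand): attcaCATCaaataccagttcagttttgtc
ATP5PB (chr1:111461151-111461180, plus strand): tctatcggccagtcagatgtttctCATCct
ATP5MK (chr10:103389125-103389154, minus strand): tctacggttcttaacctCATCtgttaagtt
COX6A1 (chr12:120440648-120440677, plus strand): ttgtatcaaatgatgactggtatactggtc
COX7C (chr5:86619413-86619442, plus strand): ggatctgCATTtgctacacccttccttgta
COX7C (chr5:86618017-86618046, plus strand): ctCATTctctgcgcctttcgcagagcttcc
COX8A (chr11:63976418-63976447, plus strand): tCATTcaattccagtcacctcttctgcaat
NDUFA12 (chr12:94971565-94971591, minus strand): atcctccaacaacaaaaccacttactg
NDUFC1 (chr4:139290037-139290066, minus strand): gttcctctggattcacCATCtgttgagttg
NDUFA4 (chr7:10933543-10933572, minus strand): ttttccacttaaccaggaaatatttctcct

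Clusters in all 5 libraries were found on 23 subunits, and on 19 of these the clusters of all 5 libraries shared at least 1 interval, against 3162 and 2502 protein-coding genes. The 34 shared intervals on subunits were 2 to 132 nt long with a median of 31 nt, and 18 held CATT, CATA or CATC in the central 30 nt. The motif share in the shared intervals of all genes was not computed, so this count shows no enrichment. Most of the sites shown lay in the 3′UTR. The midpoint of the shared interval lay 29 nt after the last coding nucleotide in ATP5F1A, 34 nt in ATP5MK, 56 nt in ATP5F1B, 65 nt in NDUFC1, 115 nt in COX8A, 128 nt in COX6A1 and 174 nt in ATP5PB. The exceptions were NDUFA12 and COX7C, whose longest shared intervals lay inside the coding sequence.

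Clusters per library summed to 670712 to 2362467 reads in the RNase I libraries, to 1157194 with RNase T1 at 1/1 and to 182448 with RNase T1 at 0.25/0.25. The IgG library had 25 clusters with 324 reads in all, and none lay on a subunit mRNA. In the IGF2BP3 library at the same RNase I doses, 146 of 43385 clusters lay on subunits. The IgG clusters were thus too few for their absence from subunits to be read. Levels are given as CPM, the cluster reads of a gene per 1000000 cluster reads of the library. The mRNA itself was not measured, so a low level of an mRNA and little binding per mRNA cannot be told apart. Of 6 colon epithelium markers, 4 (EPCAM, CDH1, KRT8 and KRT18) had a cluster with RNase I 0.05/0.05, VIL1 had none in any library and CDX2 had one with RNase T1 1/1 only. None of 5 markers of leukocytes, fibroblasts or endothelium (PTPRC, CD3E, COL1A1, COL3A1, PECAM1) had a cluster. The RNase I 0.05/0.05 and RNase T1 1/1 libraries were electroeluted from the gel and the other IGF2BP3 libraries came from crushed gel.

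Subunit mRNAs carried 836 called clusters over the 5 libraries. There were 336 clusters with 10571 reads on 68 subunits (76.4%) with RNase I 0.05/0.05, where 43.7% of all protein-coding genes had a cluster. RNase I 0.1/0.025 gave clusters on 53 subunits (59.6%, background 32.0%) and RNase I 0.05/0.025 also on 53 (59.6%, background 30.3%). RNase T1 1/1 gave clusters on 51 subunits (57.3%, background 37.6%) and RNase T1 0.25/0.25, the shallowest library, on 23 (25.8%, background 16.7%). Subunit reads were 0.448% of the cluster reads with RNase I 0.05/0.05 (Wilson 95% interval 0.439 to 0.456), 0.373% at 0.1/0.025 (0.360 to 0.386) and 0.515% at 0.05/0.025 (0.498 to 0.533). They were 0.243% with RNase T1 1/1 (0.234 to 0.252) and 0.309% with RNase T1 0.25/0.25 (0.285 to 0.336), both below all RNase I shares.

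A gene is called a target here if any single cluster on it exceeded both 10 CPM and 0.5 conversion events (T to C) per read. The rule was met by 39 subunits (43.8%) in the RNase I 0.05/0.05 library, 33 (37.1%) at 0.1/0.025 and 39 (43.8%) at 0.05/0.025. The share of all protein-coding genes that met it was 21.9%, 21.3% and 22.0% in these libraries. With RNase T1 the rule was met by 26 subunits (29.2%) at 1/1 and 16 (17.98%) at 0.25/0.25, beside 19.6% and 13.7% of all protein-coding genes. The limit of 10 CPM stood for 23.6 reads in the deepest library and 1.82 reads in the shallowest, so the rule asked for different read counts.

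Targets in all 5 libraries numbered 9 subunits (10.1%), which is near the 9.91% of all protein-coding genes. They were ATP5F1A, ATP5F1B, ATP5MK, ATP5PB, COX6A1, COX7C, COX8A, NDUFA12 and NDUFC1. In the middle of the range the shares lay further apart, as 12 subunits (13.5%) were targets in 4 libraries against 5.45% of all genes, and 11 (12.4%) in 1 library against 5.73%. Of the subunits, 38 (42.7%) were targets in no library, against 70.5% of all genes, and 21 of these had no called cluster at all, namely ATP5ME, ATP5MGL, ATP5PD, COX4I2, COX6A2, COX6B2, COX7A1, COX7B2, COX8C, NDUFA13, NDUFA2, NDUFA3, NDUFA4L2, NDUFA6, NDUFB1, NDUFB7, NDUFC2-KCTD14, NDUFS6, NDUFS8, NDUFV1 and UQCRC1. The map of levels shows these steps by complex.

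**Figure D1:**
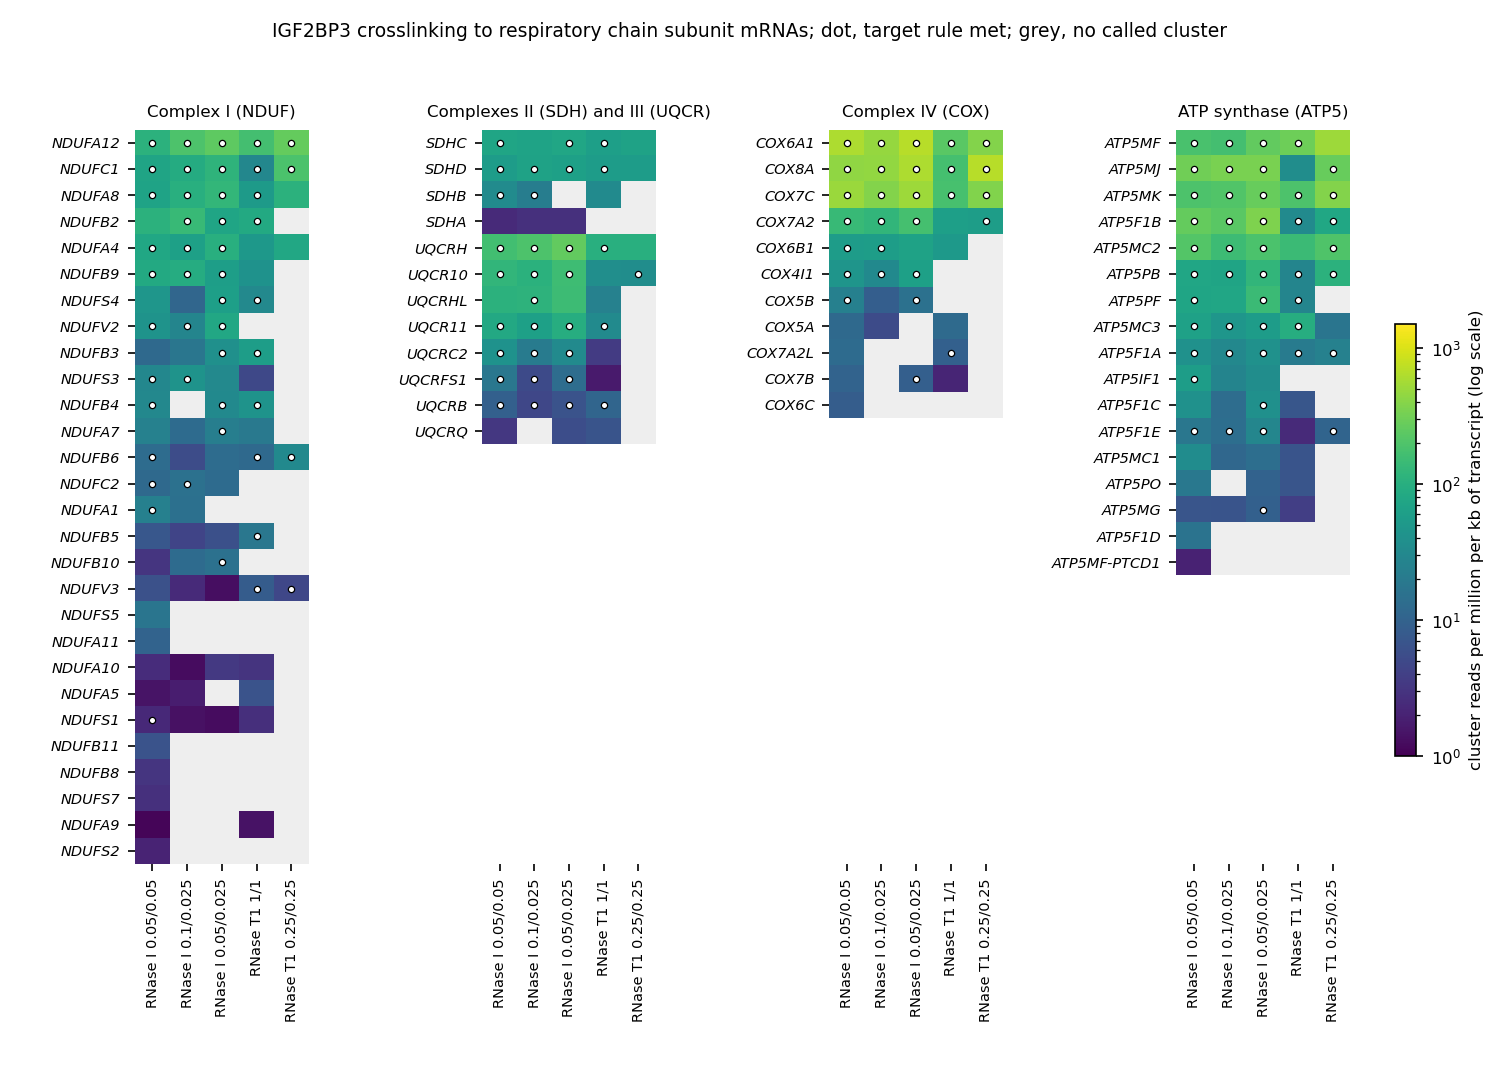
Level of each subunit mRNA with a cluster, in CPM per kb of the canonical transcript (colour, log scale), in the 5 IGF2BP3 libraries (columns), grouped by complex and ordered by mean level. White dots mark libraries in which the gene met the target rule and grey marks no called cluster; 28 complex I, 4 complex II, 8 complex III, 11 complex IV and 17 ATP synthase genes are drawn, and COX6A1, COX8A and COX7C are the brightest rows.

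ATP synthase mRNAs took the largest part of the subunit signal in every IGF2BP3 library, between 37.8% of the subunit CPM with RNase T1 1/1 and 46.3% with RNase T1 0.25/0.25. Complex IV held 17.1% to 26.1% and complex I, with 39 of the 89 genes, 17.3% to 26.9%. ATP5F1B encodes the catalytic beta subunit. It had 475, 401 and 635 CPM with RNase I at 0.05/0.05, 0.1/0.025 and 0.05/0.025 and 58.8 and 137 CPM with RNase T1 at 1/1 and 0.25/0.25, the highest mean of all subunits (341 CPM). ATP5PB, the b subunit of the peripheral stalk, had 200, 187 and 322 CPM with RNase I and 74.3 and 285 CPM with RNase T1 in the same order. The RNase T1 values of ATP5F1B lay below all its RNase I values, whereas the ATP5PB value at 0.25/0.25 lay inside its RNase I range. Without clusters whose sequence was listed again elsewhere, ATP5PB had 17.3 and 132 CPM with RNase T1, both below all its RNase I values. Longer RNase I clusters over the same bases were not left out, so this ordering is not like for like.

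The alpha subunit, ATP5F1A, had 232, 177 and 231 CPM with RNase I and 119 and 143 CPM with RNase T1. The small membrane subunit ATP5MK had 129, 137 and 183 CPM with RNase I and 127 and 258 CPM with RNase T1, so its highest value came from an RNase T1 library. ATP5MF, another small membrane subunit, had its 2 highest values with RNase T1 (133 CPM at 1/1 and 230 CPM at 0.25/0.25, against 74.7 to 116 CPM with RNase I). Of the c-ring genes, ATP5MC2 and ATP5MC3 were targets in 4 libraries each and ATP5MC1 in none.

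In complex IV, the terminal oxidase, the nuclear-encoded mRNAs with the most signal were those of small subunits (the catalytic core is encoded by mitochondrial DNA and lies outside the symbol rule). COX6A1 had 326, 253 and 368 CPM with RNase I at 0.05/0.05, 0.1/0.025 and 0.05/0.025 and 124 and 208 CPM with RNase T1 at 1/1 and 0.25/0.25. COX7C had 312, 243 and 324 CPM with RNase I and 112 and 236 CPM with RNase T1. COX8A had 222, 229 and 304 CPM with RNase I and 84.7 and 334 CPM with RNase T1. Per kb of transcript these were the 3 highest mean levels of all subunits, 476 CPM per kb for COX6A1, 475 for COX8A and 390 for COX7C, followed by ATP5MF (288). Their own order cannot be read, since the libraries of each gene spread over far more than these differences.

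Complex I, the NADH dehydrogenase, was uneven, with 28 of 39 mRNAs carrying a cluster in some library and 19 meeting the target rule in some library. NDUFA12, an accessory subunit, had 61.4, 108 and 136 CPM with RNase I and 95.1 and 148 CPM with RNase T1, again in the order 0.05/0.05, 0.1/0.025, 0.05/0.025 and 1/1, 0.25/0.25. NDUFA4 had 157, 128 and 204 CPM with RNase I and 101 and 164 CPM with RNase T1. It carries a complex I symbol but is now regarded as a part of complex IV. NDUFC1, the last subunit that was a target in all 5 libraries, ranged from 20.7 CPM with RNase T1 1/1 to 132 CPM with RNase T1 0.25/0.25.

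The mRNAs of the complex II membrane anchors had clusters in all 5 libraries. SDHC, one of the membrane anchors of succinate dehydrogenase, had 95.2, 92.1 and 98.4 CPM with RNase I and 81.2 and 87.7 CPM with RNase T1. SDHD, the other anchor, had 76.2, 90.9 and 85.0 CPM with RNase I and 76.9 and 76.7 CPM with RNase T1. The closeness of these values depends on clusters whose sequence was listed again elsewhere. Without them SDHC had 91.4, 41.1 and 98.4 CPM with RNase I and 31.1 and 87.7 CPM with RNase T1, and SDHD had 53.7 CPM with RNase I 0.05/0.025. The mRNA of the flavoprotein SDHA had clusters in the RNase I libraries alone and was a target in none, and that of the iron-sulfur subunit SDHB was a target in the RNase I 0.05/0.05 and 0.1/0.025 libraries.

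In complex III, the cytochrome bc1 complex, 8 of 9 mRNAs had a cluster and 7 met the target rule in some library. UQCRH, the hinge protein, had 88.5, 103 and 140 CPM with RNase I and 53.6 and 54.8 CPM with RNase T1. UQCR10, a small membrane subunit, had 112, 97.1 and 143 CPM with RNase I and 33.7 and 32.9 CPM with RNase T1. In both genes the RNase T1 values lay below the lowest RNase I value. Complex III held 2.84% of the subunit CPM in the RNase T1 0.25/0.25 library and 10.3% to 12.5% in the other IGF2BP3 libraries. The 2.84% came from 10 reads on UQCRH and 6 on UQCR10. No other complex III gene had a called cluster in this shallowest library.

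Which subunits carried more signal with 1 enzyme was examined in the electroeluted pair, RNase I 0.05/0.05 and RNase T1 1/1. With a cluster in both libraries and at least 20 reads in all, 51 subunits could be compared, and 21 (41.2%) were more than 2-fold higher with RNase I, against 19.1% of 6747 protein-coding genes. Only 4 (7.84%) were more than 2-fold lower, against 16.5% of all. The median log2 ratio was 0.59 over the subunits and -0.01 over all genes, and 36 of the 51 subunits lay above 0. A further 17 subunits (19.1% of 89) had a cluster with RNase I 0.05/0.05 only and none with RNase T1 1/1 only, against 8.25% and 2.19% of all protein-coding genes. The RNase I library was also the deeper one.

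**Figure D2:**
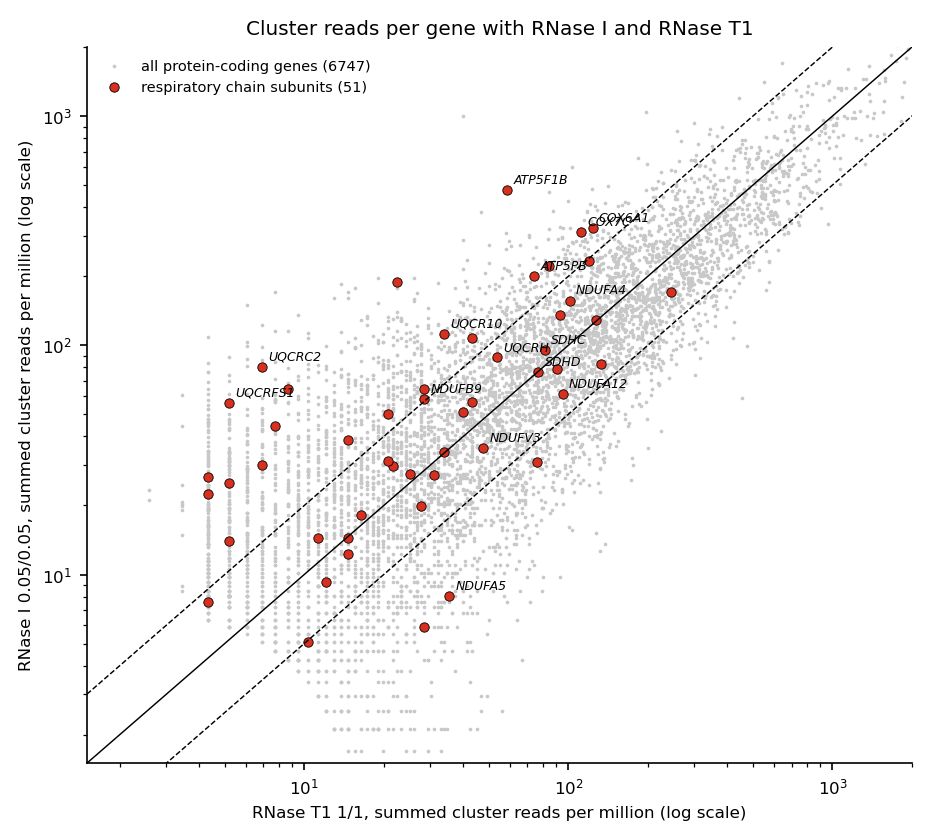
Summed CPM of each gene with RNase T1 1/1 (x axis, log scale) and RNase I 0.05/0.05 (y axis, log scale) for 51 subunits (red) and 6747 protein-coding genes (grey) with a cluster in both libraries. The solid line marks equal values and the dashed lines a 2-fold difference; 21 red points lie above the upper dashed line and 4 below the lower one, with ATP5F1B and UQCRC2 far above and NDUFA5 below.

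The highest ratio among subunits with at least 50 reads belonged to UQCRC2, a core protein of complex III. It had 80.4, 39.8 and 62.6 CPM with RNase I at 0.05/0.05, 0.1/0.025 and 0.05/0.025, 6.91 CPM with RNase T1 1/1 and no cluster with RNase T1 0.25/0.25. The ratio of 11.6 rested on 190 and 8 reads (exact conditional 95% interval 5.79 to 27.3). ATP5F1B differed 8.08-fold from 1121 and 68 reads (6.32 to 10.5), while COX6A1 (2.63-fold), COX7C (2.80), ATP5PB (2.69) and COX8A (2.62) differed less with all clusters counted. Many RNase T1 1/1 reads of ATP5PB and COX6A1 lay in clusters whose sequence was listed again elsewhere in the genome. Without such clusters ATP5PB differed 11.2-fold (456 and 20 reads, interval 7.15 to 18.5) and COX6A1 5.89-fold (769 and 64 reads, 4.56 to 7.72). The order of these ratios thus depends on such clusters. Only clusters whose whole sequence recurred were left out, which longer clusters meet less easily. The 376-nt RNase I 0.05/0.05 cluster of ATP5PB (352 reads) covers bases of left-out RNase T1 clusters and stayed, so the ratios without them are not like for like. The lowest ratio was that of NDUFA5, an accessory complex I subunit, with 8.04 CPM with RNase I 0.05/0.05, 9.96 CPM with RNase I 0.1/0.025 and 35.4 CPM with RNase T1 1/1 (ratio 0.227, interval 0.124 to 0.400). NDUFA5 had no cluster in the remaining IGF2BP3 libraries and met the target rule in none.

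The subunits that were targets in all 3 RNase I libraries and in neither RNase T1 library numbered 6, and they missed the rule in different ways. NDUFA4 was lower with RNase T1 1/1 than with RNase I 0.05/0.05 (ratio 1.55, interval 1.26 to 1.92) but well above 10 CPM with both RNase T1 doses, and its strongest clusters there had 0.421 (1/1) and 0.353 (0.25/0.25) conversion events per read, against 0.615 to 0.755 in the RNase I libraries. NDUFB9, an accessory complex I subunit, had 58.4, 64.7 and 41.8 CPM with RNase I, 28.5 CPM with RNase T1 1/1 and no cluster with RNase T1 0.25/0.25. No single cluster of NDUFB9 with RNase T1 1/1 passed 10 CPM, the strongest having 7.78.

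UQCRC2 is given above, and UQCRFS1, the Rieske iron-sulfur protein, resembled it. UQCRFS1 had 55.9, 16.2 and 41.8 CPM with RNase I, 5.19 CPM with RNase T1 1/1 (1 cluster, whose sequence was listed again elsewhere) and no cluster with RNase T1 0.25/0.25. NDUFV2, an iron-sulfur subunit of complex I, had 36.8, 23.7 and 68.6 CPM with RNase I and no cluster in either RNase T1 library. Its strongest clusters lay in the coding sequence, and all NDUFV2 clusters also overlapped an exon of an unnamed long non-coding RNA gene on the same strand, so they cannot be assigned to 1 gene. COX4I1, the common form of the largest nuclear-encoded complex IV subunit, had 34.3, 24.9 and 49.2 CPM with RNase I and no cluster with RNase T1.

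The reverse pattern was seen only in NDUFV3, an accessory complex I subunit. It had 35.6, 13.7 and 7.46 CPM with RNase I and 47.5 and 27.4 CPM with RNase T1, and was a target in both RNase T1 libraries and in no RNase I library. The strongest RNase T1 cluster had the same 20-nt limits in both libraries, chr21:42909490-42909509 in the 3′UTR, with 20 and 5 reads. COX7A2L and NDUFB5 were targets with RNase T1 1/1 only. In the electroeluted pair, 20 subunits were targets with both enzymes, which is 51.3% of the RNase I 0.05/0.05 targets and 76.9% of the RNase T1 1/1 targets. Over all protein-coding genes the shared targets were 72.4% and 80.7%.

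Between the RNase I libraries that differed in the lysate dose, most subunits shifted the same way. From 0.05/0.025 to 0.1/0.025, that is with more RNase I in the lysate, 34 of 40 subunits compared were lower, 6 (15.0%) by more than 2-fold, against 5.31% of 4917 genes, and none was more than 2-fold higher, against 8.93%. At a minimum of 50 reads, 2 of 31 subunits were more than 2-fold lower. The median log2 ratio was -0.43 over subunits and 0.05 over all genes. From 0.05/0.025 to 0.05/0.05, with more RNase I on the beads, 2 of 51 subunits (3.92%) were more than 2-fold higher, against 21.1% of 5801 genes, and 3 (5.88%) more than 2-fold lower, against 5.38%. The medians were -0.18 and 0.21. Counting genes with at least 20 reads and a cluster in only 1 of these libraries as past 2-fold gave 9 higher and 3 lower of 58 subunits, against 33.9% and 4.58% of all genes. This step changed the gel extraction as well, so dose and extraction cannot be told apart.

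The same holds for the RNase T1 pair, in which 22 subunits could be compared. From 0.25/0.25 to 1/1, 9 (40.9%) were more than 2-fold lower, against 15.2% of 3212 genes, and 1 (4.55%) more than 2-fold higher, against 22.4%. The medians were -0.73 and 0.09. A further 28 subunits (31.5% of 89) had clusters with RNase T1 1/1 only, against 21.2% of all protein-coding genes. Counting those with at least 20 reads as past 2-fold turned the balance to 14 higher and 9 lower of 35 subunits, against 53.4% and 9.11% of all genes. Without clusters whose sequence was listed again elsewhere, 12 of 22 were lower and 1 higher. These comparisons share libraries with each other, so their counts are not independent.

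By reads, most of the subunit signal lay close to the stop codon. The middle of the cluster was within 150 nt of the stop codon for 65.9%, 72.0% and 71.4% of subunit reads with RNase I at 0.05/0.05, 0.1/0.025 and 0.05/0.025, and for 60.8% and 77.9% with RNase T1 at 1/1 and 0.25/0.25. Over all protein-coding genes these shares were 8.70% to 12.7%. Counted by cluster, the medians over all genes were 514 to 823 nt after the stop codon. Those of subunits ranged from -45 nt, before it (quartiles -272 and 129.5), with RNase I 0.05/0.05 to 127 nt (16 and 684) with RNase T1 1/1. The 3′UTR of the canonical transcript was short in these genes, with a median of 195 nt (quartiles 110 and 752) against 1029 nt over all protein-coding genes and 1780 nt over genes that were targets in any IGF2BP3 library. Along the canonical 3′UTR, the median subunit cluster lay at 25.2% to 33.6% of its length, and that of all genes at 40.0% to 43.0%. The 3′UTR ends used in these cells were not measured.

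**Figure D3:**
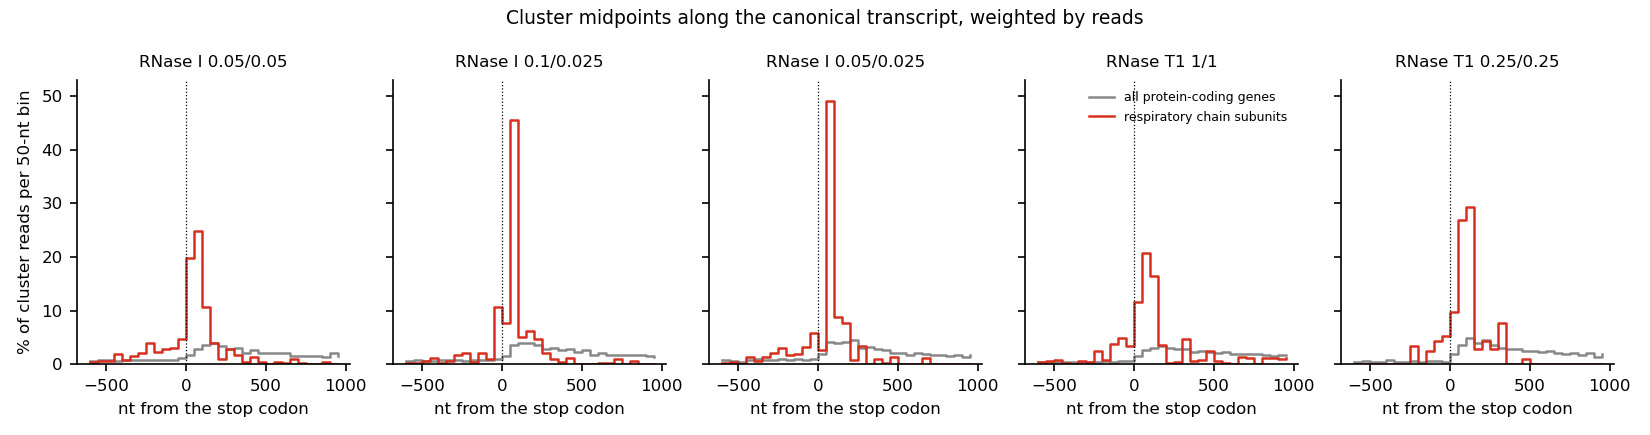
Percent of cluster reads by distance of the cluster midpoint from the stop codon on the canonical transcript (50-nt bins) for subunits (red) and all protein-coding genes (grey), 1 panel per IGF2BP3 library. The red line peaks within the first 150 nt of the 3′UTR in every panel, whereas the grey line stays low and runs on into long 3′UTRs.

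On subunits, a minority of the RNase I clusters ran across the stop codon but held a large part of the reads. They were 10.4%, 11.6% and 11.3% of subunit clusters with RNase I at 0.05/0.05, 0.1/0.025 and 0.05/0.025, against 2.37%, 2.09% and 2.25% over all genes. Clusters that overlapped both the coding sequence and the 3′UTR of the canonical transcript held 44.2%, 34.6% and 40.8% of subunit reads with RNase I at 0.05/0.05, 0.1/0.025 and 0.05/0.025, against 9.48%, 5.63% and 6.61% over all genes. With RNase T1 they held 2.70% at 1/1 and none at 0.25/0.25, against 0.942% and 1.32%. Subunit clusters had median lengths of 53.5 to 57 nt with RNase I and 34 to 38 nt with RNase T1, much like the medians over all genes (55 to 57 and 34 to 38 nt).

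The sites of the enzymes overlapped. Of the subunit clusters, 129 of 166 with RNase T1 1/1 (89.2% of reads) and all 38 with RNase T1 0.25/0.25 overlapped an RNase I cluster. The corresponding shares over all genes were 90.9% and 99.3% of reads. In ATP5F1B, for example, the strongest RNase I 0.05/0.05 cluster covered chr12:56638176-56638418 (243 nt, 723 reads), and both RNase T1 libraries had shorter clusters within it. The maps of 8 transcripts show this nesting.

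**Figure D4:**
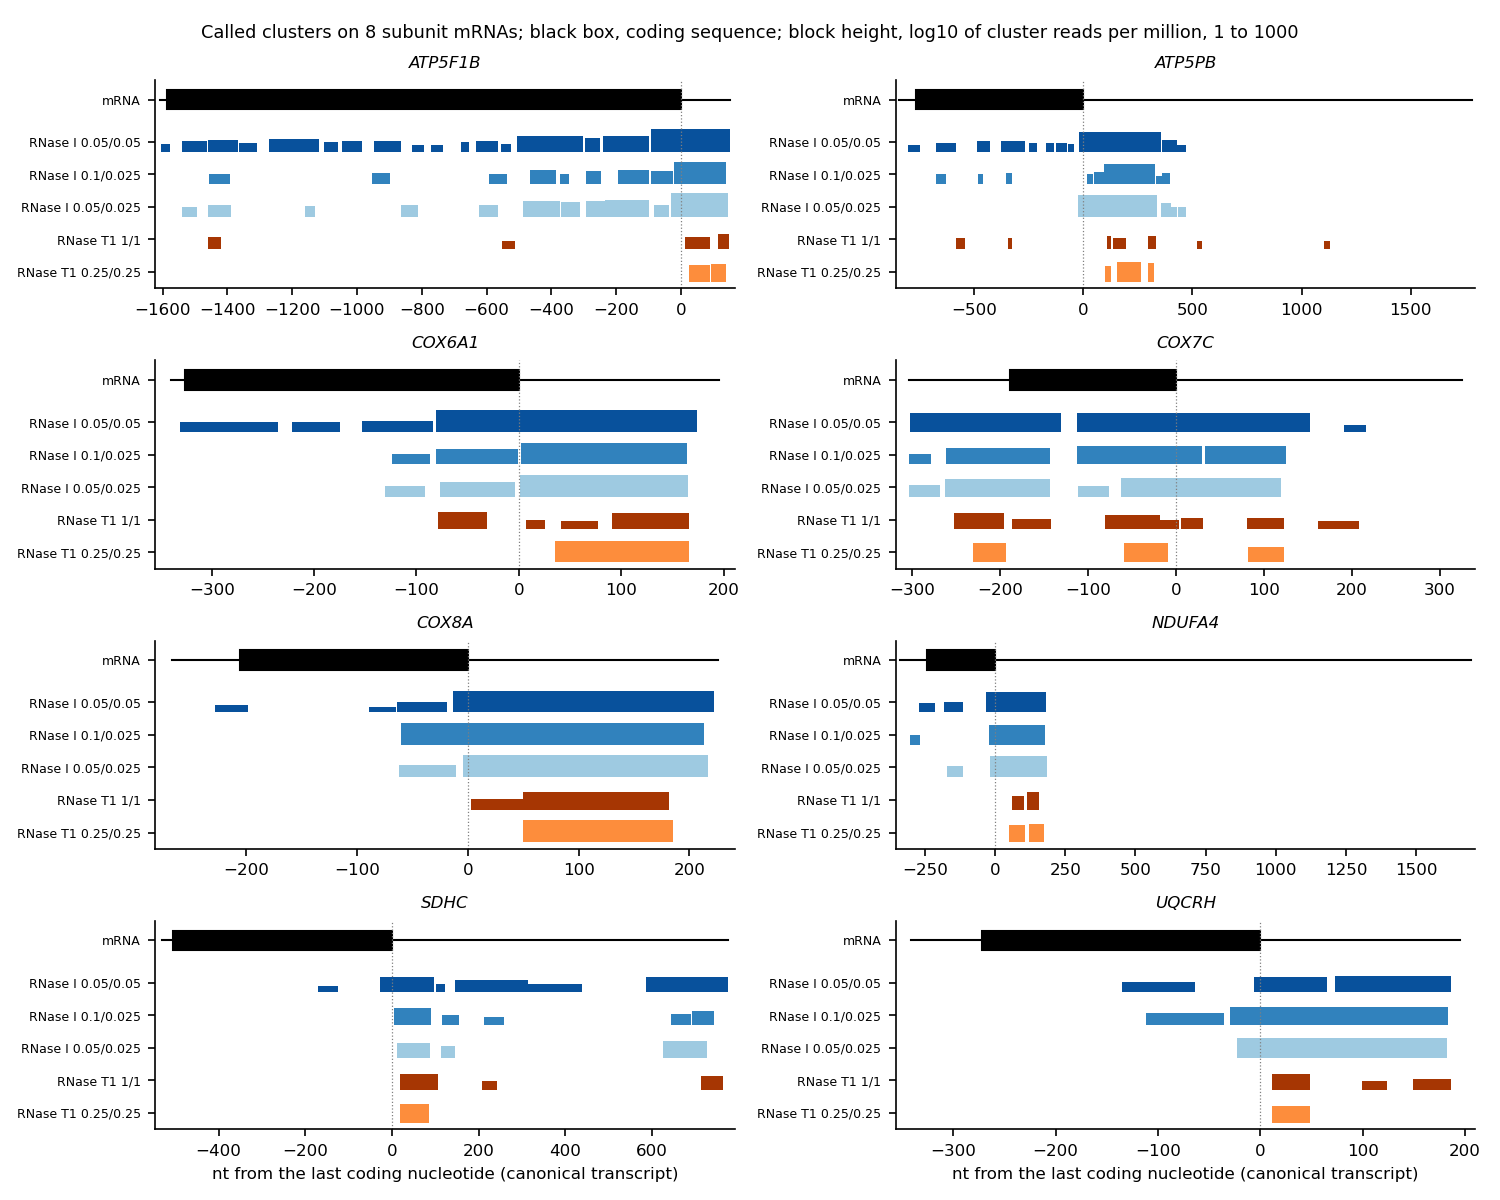
Called clusters along 8 subunit mRNAs by distance in nt from the last coding nucleotide of the canonical transcript (black line, transcript; black box, coding sequence), 1 row per IGF2BP3 library; block height is log10 of the cluster's CPM. RNase I clusters (blue) are wide and some cross the stop codon. RNase T1 clusters (orange) are narrower and lie mostly inside them, and COX7C has clusters at its 5′ end in every library.

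COX7C differed from the other maps in its 5′ end. The strongest RNase T1 clusters of COX7C lay in the 5′UTR, at chr5:86617992-86618048 (58 reads, 1/1) and chr5:86618014-86618051 (19 reads, 0.25/0.25), where the shared 5′ site shown above lies. With RNase I the strongest COX7C clusters lay at the end of the coding sequence and the start of the 3′UTR. The canonical 3′UTRs of NDUFA4 and ATP5PB have 1696 and 1782 nt, long for a subunit. Their strongest clusters with RNase I 0.05/0.05 ended 182 and 353 nt after the stop codon. Whether the mRNAs in these cells carry the whole canonical 3′UTR was not tested. By reads, clusters that overlap a 3′UTR of any transcript held 82.3% to 88.9% of the subunit signal, beside 86.6% to 91.7% over all genes, and this share depends on the stop codon clusters. Counting those as coding sequence left 28.4%, 45.8% and 37.6% with RNase I at 0.05/0.05, 0.1/0.025 and 0.05/0.025, and 73.0% and 80.5% with RNase T1. Coding sequence then held 71.0%, 52.5% and 61.9% of subunit reads with RNase I.

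In every IGF2BP3 library the share of targets was lower with a short 3′UTR than with a longer one, among subunits and among all genes. The share of subunits exceeded that of all genes in both classes. Among genes with a 3′UTR of up to 500 nt, the target rule was met by 41.7%, 36.7%, 43.3%, 25.0% and 16.7% of 60 subunits with RNase I 0.05/0.05, 0.1/0.025, 0.05/0.025 and RNase T1 1/1 and 0.25/0.25, and by 9.93%, 9.33%, 10.7%, 6.06% and 4.59% of 6358 protein-coding genes. Among genes with longer 3′UTRs the shares were 48.3%, 37.9%, 44.8%, 37.9% and 20.7% of 29 subunits and 27.5%, 26.9%, 27.3%, 26.1% and 17.9% of 13578 genes. The mRNA levels of these genes were not measured, so their part in these shares was not tested.

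The motif shares near the cluster peak were mostly close on subunits and over all genes. The peak can lie at the edge of its cluster, as on ATP5F1E with RNase I 0.05/0.05, so a window can reach outside the cluster. In 41-nt windows centred on the position where the cluster signal peaks, CATT, CATA or CATC was present in 40.5%, 49.3% and 48.0% of subunit clusters with RNase I at 0.05/0.05, 0.1/0.025 and 0.05/0.025, beside 40.8%, 44.2% and 43.9% of all clusters on protein-coding genes. With RNase T1 the shares were 54.8% at 1/1, beside 55.1%, and 47.4% (18 of 38) at 0.25/0.25, beside 55.3%. CAGT was found in 19.6%, 21.9% and 21.3% of subunit windows with RNase I and 18.7% and 13.2% with RNase T1 (all clusters 19.4%, 20.4%, 20.8%, 18.2% and 20.9%). GGAC was found in 5.26% to 10.2% of subunit windows and 7.42% to 10.3% of all windows. CATT alone was found in 18.75%, 27.4% and 22.0% of subunit windows with RNase I and 27.7% and 18.4% (7 of 38) with RNase T1. Over all clusters the CATT shares were 20.4%, 23.0%, 22.95%, 30.8% and 31.4%. These letters were read on the RNA strand only, and a window can hold several of the motifs.

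Alternative forms of subunits that are known from other tissues gave no clusters. COX4I2, COX6A2, COX6B2, COX7A1, COX7B2, COX8C, NDUFA4L2 and ATP5MGL were all without a called cluster, while the related genes COX4I1, COX6A1, COX6B1, COX7A2, COX7B, COX8A, NDUFA4 and ATP5MG all had some. COX6B1 had 27.5, 28.6 and 32.8 CPM with RNase I at 0.05/0.05, 0.1/0.025 and 0.05/0.025, 25.1 CPM with RNase T1 1/1 and no cluster with RNase T1 0.25/0.25. COX7A2 had 64.3, 57.3 and 80.5 CPM with RNase I and 28.5 and 27.4 CPM with RNase T1 (33 and 5 reads). Both RNase T1 values lay below all its RNase I values, the second on few reads. COX7B had 25.0 CPM in the RNase I 0.05/0.05 library, 22.4 CPM at 0.05/0.025 and 5.19 CPM with RNase T1 1/1, but no cluster in the other libraries. ATP5MG had 4.32 to 10.4 CPM in 4 libraries and no cluster with RNase T1 0.25/0.25.

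Among copies, the exception was UQCRHL, an intronless copy of UQCRH, with 30.1, 31.1 and 41.8 CPM with RNase I and 6.91 CPM with RNase T1 1/1. Reads of such near-identical copies cannot be assigned with certainty. Some clusters were listed again in the same library, as the same sequence at another place of the genome, and on subunits all of these in the RNase T1 libraries had the same read count at both places. This held for 12.6% of subunit reads with RNase T1 1/1 (16 clusters), against 3.42% over all genes, for 6.21% with RNase T1 0.25/0.25 (all genes 4.13%), and for 0.483% to 1.90% with RNase I. Among them were the strongest RNase T1 1/1 clusters of COX6A1 (73 reads), ATP5MC2 (76 reads) and SDHC (58 reads), and the strongest RNase I 0.1/0.025 cluster of SDHC (41 reads). Without such clusters the targets were 25 with RNase T1 1/1 and 15 with RNase T1 0.25/0.25, and ATP5PB was no longer a target in all 5 libraries. Such clusters had to recur in their whole sequence, which longer RNase I clusters meet less easily, so the read shares do not compare the enzymes.

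GENCODE lists 188 pseudogenes named after 49 of the subunits. Clusters lay on 28, 13 and 16 of these pseudogenes in the RNase I libraries (0.05/0.05, 0.1/0.025 and 0.05/0.025) and on 10 and 3 in the RNase T1 libraries (1/1 and 0.25/0.25). Their reads amounted to 11.03%, 7.28%, 12.7%, 6.54% and 3.90% of the reads on the subunits themselves. The most reads lay on COX6A1P2, with 231, 56 and 210 reads with RNase I at 0.05/0.05, 0.1/0.025 and 0.05/0.025 and 73 with RNase T1 1/1. The 73 reads lay at a sequence identical to that of the COX6A1 cluster with the same count, so the level of COX6A1 is uncertain by such reads.

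Genes that work with the subunits were read from fixed lists. The 13 subunit genes of mitochondrial DNA had 12, 11 and 9 targets with RNase I and 13 and 8 with RNase T1. Over all protein-coding genes the target shares were 21.9%, 21.3%, 22.0%, 19.6% and 13.7%. A cluster counted for each gene whose exon it overlapped, so these genes need not be separate counts. MT-ND4 and MT-ND4L had the same 2468 reads with RNase I 0.05/0.05. Whether IGF2BP3 binds these RNAs inside mitochondria was not tested. MT-CO1, the catalytic subunit of complex IV, had 1146 to 2697 CPM. Of 46 assembly factors, 41.3%, 34.8%, 34.8%, 23.9% and 21.7% were targets in the 5 libraries, in the order used throughout. Of 78 mitochondrial ribosomal protein genes, the shares were 42.3%, 42.3%, 41.03%, 21.8% and 24.4%. Of 13 genes of the tricarboxylic acid cycle, 7, 7, 8, 4 and 4 were targets, and of 11 regulators of respiratory genes 7, 6, 6, 6 and 5. Cytochrome c (CYCS), which carries electrons from complex III to complex IV, was a target in all 5 libraries with 157 to 532 CPM. CYC1, the cytochrome c1 subunit that the symbol rule leaves out, was a target in 3 libraries and NDUFAB1, the acyl carrier subunit, in 1.

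**Figure D5:**
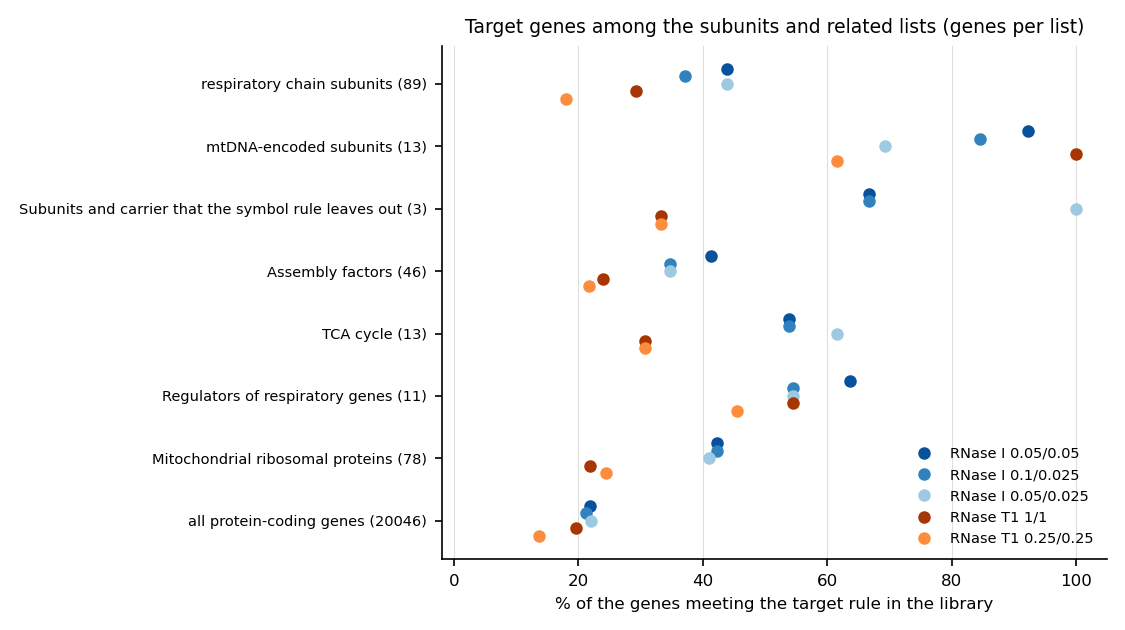
Percent of genes meeting the target rule in each IGF2BP3 library (points, blue for RNase I and orange for RNase T1) for the 89 subunits, related gene lists and all protein-coding genes; numbers in parentheses count the genes. Subunits, assembly factors and mitochondrial ribosomal protein genes lie above all protein-coding genes in every library, and each of these 3 lists is lower with RNase T1 than with RNase I.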

How the data were processed

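The 6 libraries are IR-PAR-CLIP of HCT116 cells, 5 for IGF2BP3 and 1 for control IgG. Per the methods and the submitters' processing notes, the authors demultiplexed reads with bcl2fastq 2.20.0.422, extracted UMIs and trimmed adapters with UMI-tools 1.1.1, trimmed with Trimmomatic 0.30, retained lengths between 18 and 45 nt, aligned to hg38 (GRCh38.p13) with Bowtie 0.12.7 allowing 3 mismatches, removed duplicates by UMI, and called clusters with PARalyzer. The deposited cluster lists give read counts and T-to-C conversion event counts per cluster, with strand, position and sequence. The deposited mode score, a fraction, was used in no result.

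Clusters were assigned to a gene by same-strand overlap of at least 1 nt with an exon of GENCODE release 44. All 244645 clusters matched GRCh38. Counts were divided by the library's summed cluster reads (CPM). Because the lists hold called clusters only, a gene without one has no value rather than 0. Distances use the canonical transcript. Ratios carry exact conditional 95% intervals and shares Wilson 95% intervals, both for counting error only. With 1 library per condition no test was run. Fold comparisons needed a cluster in both libraries and at least 20 reads together.

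Subunits named with values in every library were, per complex, the 2 with the highest mean CPM, those that were targets with all of 1 enzyme's libraries and none of the other's, and those with the highest and lowest ratio between RNase I 0.05/0.05 and RNase T1 1/1 (at least 50 reads together), and the isoform pairs with a cluster. ATP5F1A, ATP5MK, ATP5MF and NDUFC1 were added after their values were seen. The members and lists were chosen with earlier results of these data known. Python 3.11.15, pandas 2.3.3, NumPy 2.4.6, statsmodels 0.14.6, pysam 0.24.0, samtools 1.23.1 and Matplotlib 3.10.9 were used, and the steps were tested on simulated data.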

Additional observations from a re-analysis of the deposited data

How the results depend on the processing

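Of the recomputed summary values 129 stayed near the reported ones and 39 moved. Of the levels of named subunits 330 stayed and 10 moved. Of these, 3 were of NDUFV2, which had no cluster left once clusters on another gene's exon were left out, and the others were RNase T1 1/1 levels of SDHC, COX6A1, ATP5PB and UQCRFS1, the RNase T1 0.25/0.25 level of ATP5PB, and RNase I levels of SDHC (0.1/0.025) and SDHD (0.05/0.025) without sequences listed at another place. The number of targets depended most on the conversion limit. Above 0.75 events per read, 8, 17 and 14 subunits were targets with RNase I at 0.05/0.05, 0.1/0.025 and 0.05/0.025, 6 and 3 with RNase T1 at 1/1 and 0.25/0.25, and 0 in all 5 libraries; above 0.25 events, 19 were targets in all 5, the reported 9 among them. Above 5 CPM, RNase I 0.1/0.025 had 51 targets, and above 20 CPM, RNase I 0.05/0.05 had 25 and RNase T1 1/1 had 11. With at least 20 reads in the cluster, RNase T1 had 16 targets at 1/1 and 5 at 0.25/0.25, and 4 subunits were targets in all 5 libraries. Clusters of at least 20 reads lay on 45, 27, 29, 24 and 6 subunits in the 5 libraries. Without clusters on another gene's exon the subunit read share with RNase I 0.05/0.05 was 0.434%.

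The 3′UTR share of reads was 28.4%, 45.8%, 37.6%, 73.0% and 80.5% with clusters across the stop codon counted as coding, so that most reads became coding with RNase I 0.05/0.05 (71.0%), 79.0%, 84.1% and 82.1% for RNase I by cluster midpoint, and 73.4%, 82.2%, 80.7%, 73.9% and 83.3% on canonical transcripts alone. At a minimum of 50 reads, 2 of 44 subunits were more than 2-fold lower with RNase I 0.05/0.05 than with RNase T1 1/1, and 2 of 31 were lower with RNase I 0.1/0.025 than with 0.05/0.025. Centring on the median of all genes left 5 lower with more RNase I on the beads. Alternatives chosen after seeing the data counted genes with a cluster in 1 library only as past 2-fold. Then 9 of 58 subunits were higher with more RNase I on the beads (33.9% of all genes) and 14 of 35 higher with more RNase T1 (53.4%), which for both pairs turned the balance from lower to higher. Another, also chosen after seeing the data, centred the motif window on the cluster midpoint. It found CATT, CATA or CATC in 47.6% of subunit windows with RNase I 0.05/0.05 and 63.9% with RNase T1 1/1. Over all protein-coding genes these shares were 51.8% and 60.4%. Leaving out sequences listed at another place, likewise chosen after seeing the data, gave 8 targets in all 5 libraries.

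The clusters were called at each library's own depth, which thinning does not undo. With each library thinned to 182448 reads, 48, 39, 41, 31 and 16 subunits were targets, and 10 in all 5, including the reported 9. At this depth 10 CPM stood for 1.82 reads and clusters of at least 2 reads were kept, so every kept cluster passed that limit. Conversion events per read were carried over unchanged. These counts therefore cannot show how the target rule acts at equal depth. The share over all protein-coding genes after thinning was not computed. No paired analysis was possible because each condition had 1 library.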
